A study of Mus musculus with 6 samples.

Results

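Antioxidant defence in the prefrontal cortex (PFC) was followed through 42 genes for glutathione, peroxiredoxin, thioredoxin, superoxide, metallothionein and related stress proteins. They were found by their symbols among the 54429 gene rows of the count tables. All 42 were present, and all 42 were among the 20409 genes that had enough counts to be tested. By role they comprised 4 superoxide and hydrogen peroxide enzymes, 5 glutathione peroxidases, 7 genes of peroxiredoxins and sulfiredoxin, 5 of the thioredoxin system, 5 of glutathione synthesis and recycling, 7 glutathione transferases, 5 of NRF2, KEAP1 and their classic targets, 3 metallothioneins and 1 sestrin.

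RNA was sequenced from bulk PFC tissue in 6 libraries, from 3 groups of 2 mice each. WT mice (C57BL/6 x C3H) given vehicle, PS19 (P301S) Tau mice given vehicle and PS19 (P301S) Tau mice given UNC0642 were all labelled as 6 months old, and the study describes the WT mice as littermates. PS19 mice carry a mutant human tau of the 1N4R form under the mouse prion protein (Prnp) promoter, so the transgene is expressed widely in the brain and not in a chosen cell type. UNC0642 inhibits the histone methyltransferases EHMT1 and EHMT2, which place the repressive H3K9me2 mark, and 1 mg/kg was injected into the peritoneum on each of 3 days, with vehicle (saline with DMSO) in the other groups and experiments 24 h later. The deposited counts summed to 17005664 to 28972176 per library. In bulk tissue, fewer cells of a type and less RNA per cell cannot be told apart.

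Cells make superoxide and hydrogen peroxide as by-products of respiration. Superoxide dismutases turn superoxide into hydrogen peroxide, which catalase, glutathione peroxidases and peroxiredoxins then remove, while glutathione reductase and thioredoxin reductases regenerate the reducing partners. Many of these genes are induced by the transcription factor NRF2, which KEAP1 holds in check, whereas metallothioneins, small cysteine-rich proteins that bind zinc and copper, are induced by metals through MTF1 and by glucocorticoids and inflammation. In the brain much of this defence is carried by astrocytes, which supply neurons with precursors of glutathione.

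Some libraries stood apart from their labels or groups. Levels per library are given as CPM, counts scaled for library size. Prnp was at 1652 CPM in the library labelled WT replicate 1, near the 1470 to 1694 CPM of the 4 transgenic libraries, against 873 CPM in WT replicate 2. Mapt, the gene of tau, was at 576 CPM in WT replicate 1 and 571 to 614 CPM in the transgenic libraries, against 449 CPM in WT replicate 2. The genotype label of WT replicate 1 is therefore in doubt. It was used as given, and the genotype was not tested. Xist, expressed from the inactive X chromosome of females, was at 191 to 317 CPM in WT replicate 2 and both Tau libraries and at 0.118 to 0.197 CPM in WT replicate 1 and both UNC0642 libraries. Sex and treatment therefore cannot be told apart between UNC0642-treated and untreated Tau mice, while Tau and WT mice are matched by sex only when WT replicate 1 is left out. In Tau replicate 2, the 10 oligodendrocyte markers summed to 5655 CPM, against 1505 to 3031 CPM in the other libraries, and the 8 striatal neuron markers to 253 CPM, against 97.7 to 123 CPM. Values below rest on all 6 libraries, and the members whose call changed without WT replicate 1 or Tau replicate 2 are named.

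The metallothioneins are shown first, because all 3 rose in P301S Tau mice. Mt3, Mt2 and Mt1 lie in this order on the plus strand of chromosome 8 in the GRCm38 build, at 94152607-94154146, 94172664-94173568 and 94179082-94180327. Their RefSeq promoter windows for GRCm38.p6 run from 250 bases before to 50 bases after the annotated start, 5′ to 3′, and cover chr8:94178839-94179138 (Mt1), chr8:94172368-94172667 (Mt2) and chr8:94152357-94152656 (Mt3), all on the plus strand. Capitals mark matches to the core of the metal response element, the site bound by the zinc-sensing factor MTF1, searched on both strands as TGCACNC or TGCGCNC.
Mt1: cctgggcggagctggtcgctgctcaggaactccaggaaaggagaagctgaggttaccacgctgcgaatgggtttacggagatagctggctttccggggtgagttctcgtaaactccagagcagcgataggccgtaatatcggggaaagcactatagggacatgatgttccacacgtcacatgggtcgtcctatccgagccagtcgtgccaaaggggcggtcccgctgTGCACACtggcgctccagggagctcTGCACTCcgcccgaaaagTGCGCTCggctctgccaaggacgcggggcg
Mt2: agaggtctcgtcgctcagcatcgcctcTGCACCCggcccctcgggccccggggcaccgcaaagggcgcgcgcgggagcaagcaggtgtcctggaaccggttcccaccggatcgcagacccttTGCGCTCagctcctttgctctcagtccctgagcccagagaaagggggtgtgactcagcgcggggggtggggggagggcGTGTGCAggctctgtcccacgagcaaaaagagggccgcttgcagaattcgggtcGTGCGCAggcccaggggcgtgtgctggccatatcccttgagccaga
Mt3: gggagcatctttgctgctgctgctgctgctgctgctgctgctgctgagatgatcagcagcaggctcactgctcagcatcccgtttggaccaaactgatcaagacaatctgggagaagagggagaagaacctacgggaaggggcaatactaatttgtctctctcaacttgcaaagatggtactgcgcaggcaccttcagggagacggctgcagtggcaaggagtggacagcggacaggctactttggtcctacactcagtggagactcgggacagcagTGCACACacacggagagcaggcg
Counted from the annotated start as 0, the Mt1 window held 3 matches beginning at -23, 2 and 20. The Mt2 window held 4 beginning at -223, -128, -50 and 4, and the Mt3 window held 1 beginning at 27. Bases outside these windows, and other starts of transcription, were not searched, so these are not counts of all sites of a gene. At least 1 match was found in 25.7% of all 32851 promoter windows of this length, and 3 or more in 1.97%. Of the 36 members with a window, 11 held at least 1 match. The core of the antioxidant response element bound by NRF2 (TGACNNNGC on both strands, no overlap with the metal response matches of Mt2) was found in 12.4% of all windows and in 9 of the 36 members, including Mt2 at -79 and the known NRF2 targets Gclm, Srxn1 and Txnrd1. Members with several windows were counted by the window with the most matches, whereas the percentages count single windows. The counts of members and these percentages are therefore not on the same footing. A match describes these letters alone, and binding was not measured.

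A gene was called when its unadjusted p-value in edgeR's quasi-likelihood test was under 0.05 and its fold change at least 1.2, the limits the study used, and adjusted p-values are given beside single genes. In P301S Tau mice compared with WT mice, 7 of the 42 members were higher and 0 were lower, against 3.72% of all genes tested called higher and 6.1% called lower. The genes that rose were Gpx3, Mt2, Mt1, Gstm1, Cat, Gsto1 and Mt3. Over the 42 members the median log2 fold change was 0.16, and 37 had a positive value (32 when libraries were scaled by their size alone), whereas the median of all genes was -0.000107. In 25 members both Tau libraries lay above both WT libraries and in 2 both lay below, against 21.9% and 21.4% of all genes. Benjamini-Hochberg adjustment of edgeR's test over all genes left no member under 0.05, where 0.157% of all genes passed, and the lowest adjusted p-value of a member was 0.0915, for Mt1. Without a fold limit, edgeR's test gave 14 members and 12.4% of all genes an unadjusted p-value under 0.05, adding Prdx2, Prdx5, Prdx6, Txnrd1, Hmox2 and Sesn1 above the WT level and Slc7a11 below it.

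After UNC0642, 2 members were higher and 5 lower than in untreated Tau mice, against 3.73% and 3.95% of all genes. Gpx8 and Slc7a11 rose, and Gpx3, Sod3, Mt2, Cat and Mt1 fell. The median of the 42 members was -0.04, with 20 positive and 22 negative values (9 positive with a term for Xist), and that of all genes was -0.00235. Both treated libraries lay above both untreated ones in 7 members and below them in 19, against 20.4% and 20.9% of all genes. After adjustment no member passed 0.05 in edgeR's test (lowest 0.278, for Gpx3), where 0.0196% of all genes did. With no filter on low counts Gpx3, Cat and Slc7a11 passed in edgeR's test, at adjusted p-values of 0.00119, 0.0156 and 0.0278. The share of all genes that passed in that fit is not given here, so these values do not set the members apart from all genes. The number called was 4 without Tau replicate 2 (Gpx3, Cat, Mt2 and Txn2, all lower), near the 8.37% of all genes called in that fit, and 4 without UNC0642 replicate 2 (Gpx3, Cat and Mt2 lower, Slc7a11 higher), where 5.95% of all genes were called. This comparison and that of Tau with WT mice share the Tau libraries, so a high or low Tau library moves a gene in opposite directions in both. Gpx3, Cat, Gstm1, Mt1 and Mt2 are also on the study's own lists of reversed genes, which were chosen on these libraries, so their values are not independent evidence of a direction.

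When UNC0642-treated Tau mice were set against WT mice, edgeR's test called 0 of the 42 members, against 3.77% of all genes higher and 5.69% lower. DESeq2's Wald test called 1 (Sesn1, higher) and limma-voom 0. Without a fold limit 7 members and 12.1% of all genes had an unadjusted p-value under 0.05 in edgeR's test. These members were Prdx2, Prdx5, Prdx6, Txn1, Gstm5, Mt1 and Sesn1, all above the WT level by less than 1.2-fold. The lowest adjusted p-value was 0.262, for Sesn1, and 0.216% of all genes passed 0.05. Without WT replicate 1, 6 members were called, all higher (Prdx5, Txn1, Gstp1, Mgst3, Mt1 and Sesn1), against 9.02% of all genes in that fit. Without WT replicate 2, which leaves WT and treated libraries of 1 sex, Prdx6 and Slc7a11 were called higher, against 10.1% of all genes. The median of the members was 0.13, that of all genes -0.0123. Both treated libraries lay above both WT libraries in 20 members and below them in 3, against 22.1% and 22.3% of all genes.

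Short, abundant transcripts as a class also lay above the WT level. Over the 1634 protein-coding genes with exons of up to 2500 bases and a mean of at least 5 CPM, a set defined after the data were seen, the median log2 fold change was 0.09 in Tau and 0.05 in UNC0642-treated Tau mice, both against WT mice. In Tau mice 6.79% of these genes were called higher, and 16 members belonged to them, of which 5 were called higher at a median of 0.18. Without the library labelled WT replicate 1, 13 members were higher and 1 lower in Tau mice (9.03% of all genes were called), with Prdx5, Hmox2, Txn1, Txnrd1, Gstp1 and Mgst3 added to the 7 above and Slc7a11 lower. Without WT replicate 2, 8 were higher (10.3% of all genes called), with Cat no longer called and Prdx6 and Gclm added. Without Tau replicate 1, 10 were higher and Slc7a11 was lower (9.32%), with Gpx3 no longer called. Without Tau replicate 2, 9 were higher (8.53%), with Gpx1 and Txnrd1 added to the 7. With no filter on low counts, Mt1, Mt2, Gstm1 and Gpx3 passed 0.05 after adjustment in edgeR's test, and DESeq2's Wald test gave this for Mt1 and Mt2. The shares of all genes that passed in these 2 settings are not given here. These passes therefore do not set the members apart from all genes.

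**Figure D1:**
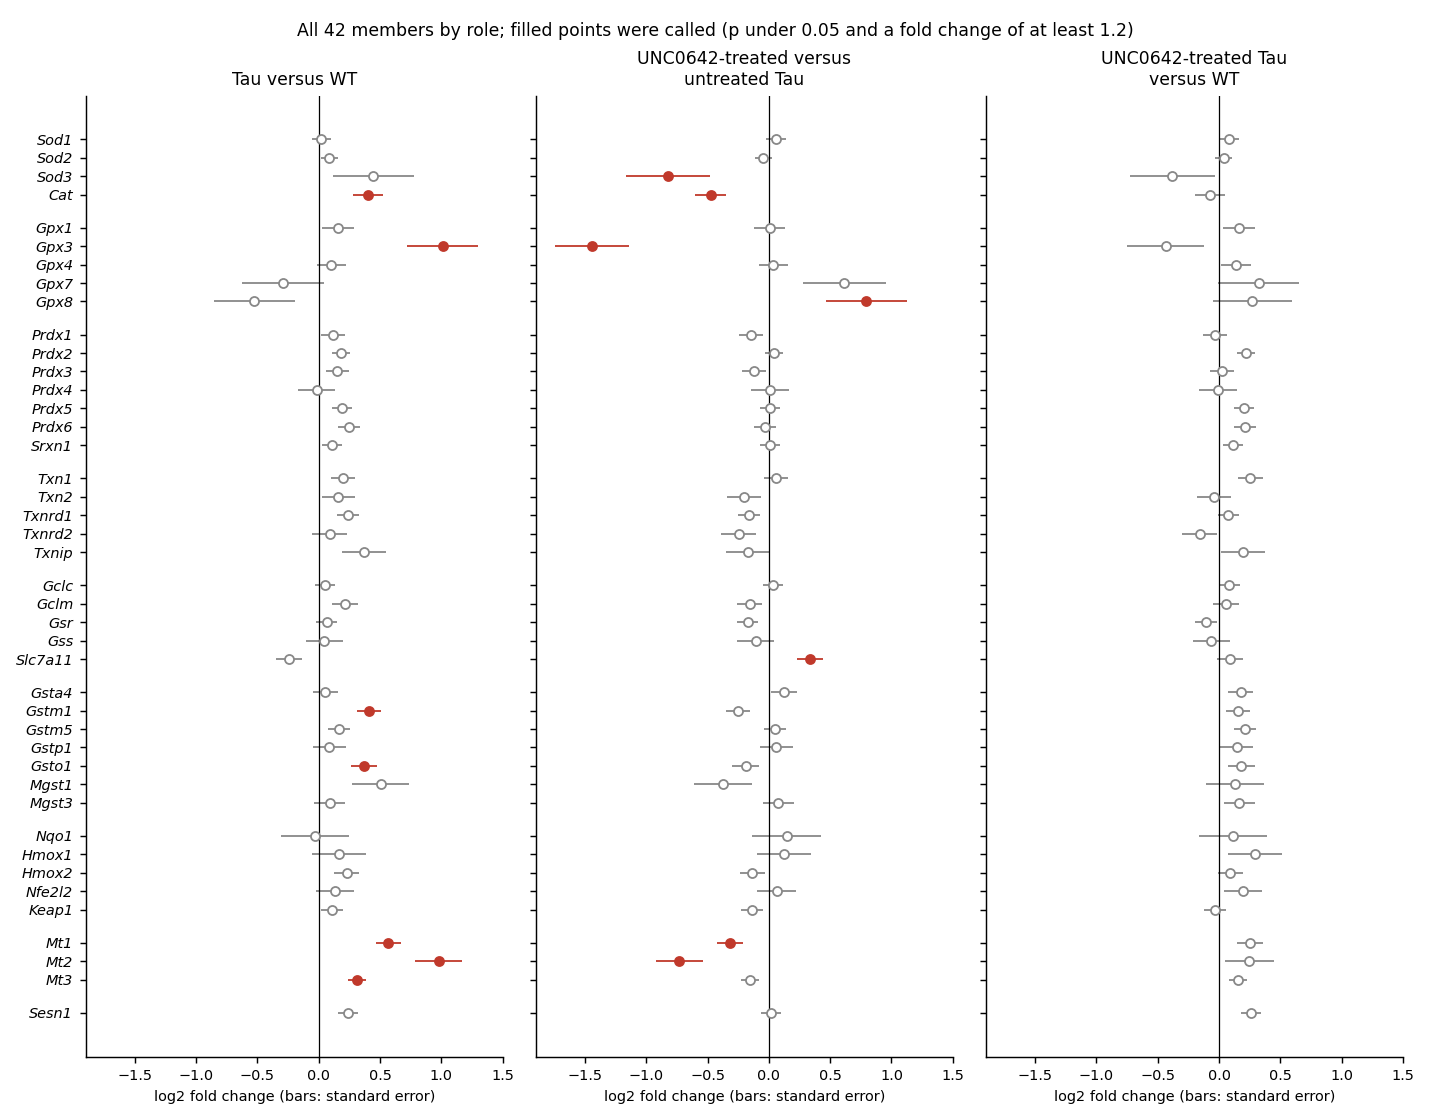
Log2 fold change (horizontal axis) of each of the 42 members (rows, grouped by role) in the 3 comparisons, with bars for the standard error of the fit and filled points for called members. In Tau versus WT mice 37 points lie right of 0 and 7 are called. In UNC0642-treated versus untreated Tau mice 7 are called, 5 of them left of 0, and against WT mice 0 are called.

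Levels were compared between genes as CPM per kilobase of annotated exon (RPKM), as the mean of 2 libraries. The length is the union of all annotated exons, so rankings by RPKM depend on the annotation. For Mt1 this length, 1246 bases, equals the whole span of the gene, and for Sod2 it is 10008 bases. By CPM Sod2 stood above Mt3, at 242 against 90.4 CPM in WT mice. By RPKM Mt3, the metallothionein of neurons and astrocytes that restrains neurite growth, was the most abundant member. It was at 84.8 RPKM in WT, 105 in Tau and 94.5 in UNC0642-treated Tau mice. The extracellular superoxide dismutase Sod3 was the least abundant by RPKM, at 0.598, 0.815 and 0.466. The standard error (SE) of the log2 fold change between Tau and WT mice was 0.07 for Mt3 and 0.33 for Sod3, so the scarce members were measured less precisely.

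**Figure D2:**
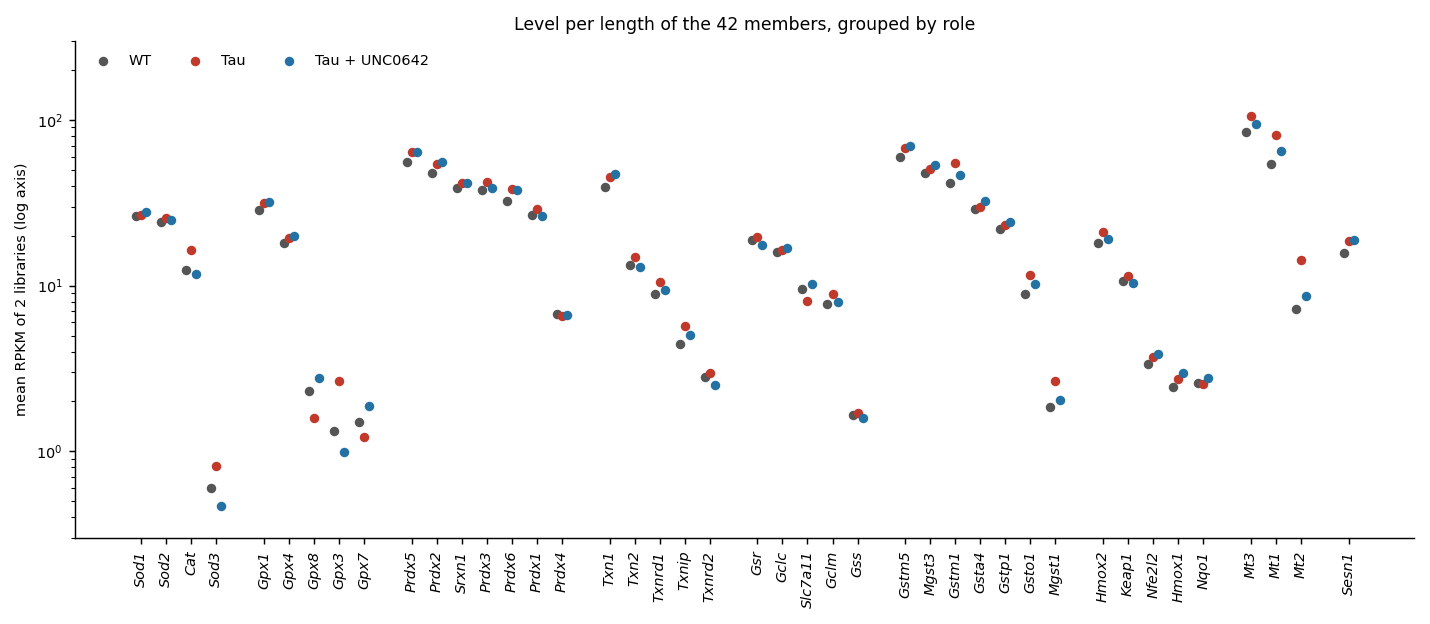
Mean RPKM of the 2 libraries of each group (vertical log axis) for the 42 members, sorted within each role. The 3 groups lie close together for most members, and Mt2, Gpx3, Sod3 and Gpx8 show wide gaps, with the Tau point on top in the first 3 and at the bottom for Gpx8.

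Mt1 and Mt2, the metal-inducible metallothioneins, both rose in Tau mice and fell after UNC0642. Mt1 was at 73.0 and 62.4 CPM in WT, 93.6 and 108 CPM in Tau and 84.1 and 77.0 CPM in UNC0642-treated Tau mice (replicates 1 and 2). Both Tau libraries were above all 4 others, and both treated libraries lay between Tau and WT. Its group levels of 67.7 ± 7.52, 101 ± 9.87 and 80.6 ± 5.03 CPM (SD, n = 2) gave a rise of 0.57 on the log2 scale in Tau mice (SE 0.11, adjusted p = 0.0915) and a value of -0.32 after UNC0642 (SE 0.11, adjusted p = 0.458). In the 6 fits that each omitted a library, the first value ran from 0.46 to 0.68 and was called every time. The second ran from -0.42 to -0.22 and was not called without Tau replicate 2 or without UNC0642 replicate 2.

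Mt2 was less abundant, with 90 to 221 counts per library. Its levels were 4.10 and 4.41 CPM in WT, 7.90 and 8.93 CPM in Tau and 5.33 and 4.81 CPM in UNC0642-treated Tau mice. The 3 groups did not overlap, with Tau highest and WT lowest. Relative to WT, Tau mice were at 0.98 on the log2 scale (SE 0.19, adjusted p = 0.121), between 0.90 and 1.07 without each library. After UNC0642 the value was -0.73 relative to untreated Tau mice (SE 0.19, adjusted p = 0.395), between -0.82 and -0.65. Both calls held in all 6 of these fits, and the second was lost, at -0.63, when a term for Xist was added. An exon of Mt2 overlaps 212 bases of Gm45774 on the opposite strand, which had 44 counts in all 6 libraries against 793 for Mt2. Gm45774 was at 0.24 and 0.08 CPM in WT, 0.14 and 0.11 CPM in Tau and 0.83 and 0.71 CPM in treated mice. It was called higher after UNC0642 (2.49 on the log2 scale), opposite in direction to Mt2. Its part in the Mt2 counts was not tested.

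Mt3 had the narrowest replicates of the metallothioneins. It was at 90.2 and 90.7 CPM in WT, 110.3 and 114 CPM in Tau and 100.5 and 101 CPM in UNC0642-treated Tau mice. The groups were again apart in the same order as for Mt1 and Mt2. The rise of Mt3 by 0.31 on the log2 scale in Tau mice (SE 0.07, adjusted p = 0.198) stayed between 0.29 and 0.34 without each library and was not called when libraries were scaled by their size alone. The value after UNC0642 was -0.16 (SE 0.08, adjusted p = 0.588) and was not called. Compared with WT mice, the 3 metallothioneins remained at 0.25 (Mt1), 0.25 (Mt2) and 0.16 (Mt3) after UNC0642, none of them called.

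**Figure D3:**
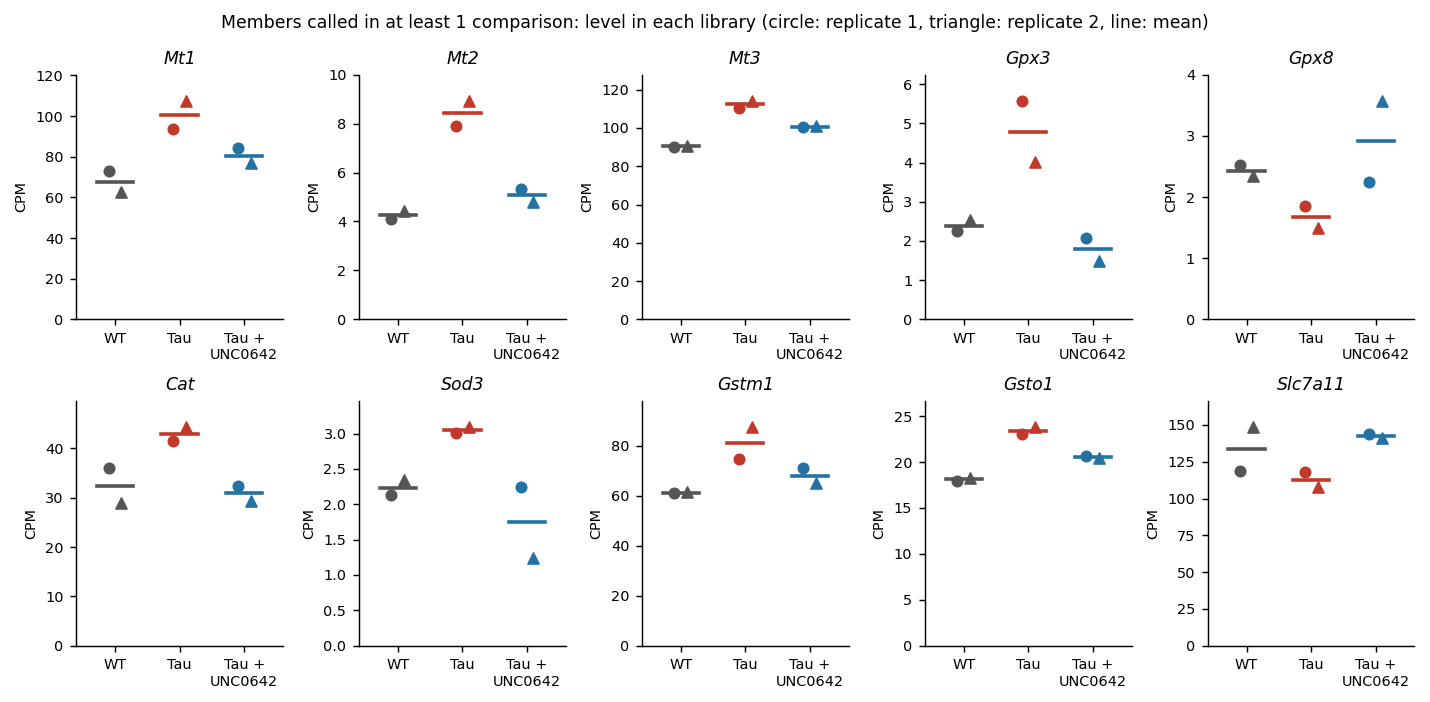
Level in CPM (vertical axes, starting at 0) of the 10 members called in at least 1 comparison, in each library of the 3 groups, with circles for replicate 1, triangles for replicate 2 and lines for group means. Both Tau libraries lie above both WT libraries for Mt1, Mt2, Mt3, Gpx3, Cat, Sod3, Gstm1 and Gsto1, and below them for Gpx8 and Slc7a11.

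Among the superoxide and hydrogen peroxide enzymes, catalase, the peroxisomal enzyme that breaks down hydrogen peroxide, moved in both comparisons, and the abundant dismutases did not. Cat was at 36 and 28.9 CPM in WT, 41.5 and 44.3 CPM in Tau and 32.4 and 29.3 CPM in UNC0642-treated Tau mice. Both Tau libraries were above the other 4, and treated and WT libraries overlapped. Tau mice were higher by 0.40 on the log2 scale (SE 0.12, adjusted p = 0.279), and the value after UNC0642 was -0.48 (SE 0.12, adjusted p = 0.388). Without each library the first value ran from 0.25 to 0.56 and was not called without WT replicate 2, and the second ran from -0.55 to -0.40 and was called in all 6 fits.

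Sod3 was at 2.13 and 2.34 CPM in WT, 3.0 and 3.09 CPM in Tau and 2.25 and 1.24 CPM in UNC0642-treated Tau mice, from 28 to 84 counts per library. The treated libraries differed from each other by nearly as much as from Tau. The fall after UNC0642 was -0.83 on the log2 scale (SE 0.34, adjusted p = 0.536), ran from -1.30 to -0.44 without each library and was called in 3 of the 6 fits, and the value in Tau mice was 0.44 (adjusted p = 0.611). Sod1 in the cytosol, the most abundant member of this role per length at 26.3, 26.7 and 27.8 RPKM, and Sod2 in mitochondria, at 246 and 238 CPM in WT and 256 and 258 CPM in Tau mice, had log2 fold changes of 0.02 and 0.09 in Tau mice and of 0.06 and -0.05 after UNC0642. Neither was called. Sod1 shares 465 bases at 97.8% identity with the pseudogene Gm8566, and Sod2 shares 3110 bases at 98.3% with Rps6ka2 in the annotation, so their counts are uncertain where reads could be assigned to either.

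Of the 42 members, the glutathione peroxidases Gpx3 and Gpx8 had the highest and lowest log2 fold changes in both comparisons that involve untreated Tau mice. Gpx3 encodes the secreted, plasma form of the enzyme. It was at 2.25 and 2.54 CPM in WT, 5.58 and 4.01 CPM in Tau and 2.07 and 1.5 CPM in UNC0642-treated Tau mice, from 34 to 156 counts per library. Both Tau libraries were highest, and both treated libraries were below both WT libraries. Tau mice had 2.01 times the WT level (log2 fold change 1.01, SE 0.29, adjusted p = 0.265) and UNC0642-treated Tau mice 0.368 times the Tau level (log2 fold change -1.44, SE 0.31, adjusted p = 0.278). Without each library the first ran from 0.74 to 1.22 and was not called without Tau replicate 1, whereas the second ran from -1.68 to -1.18 and was called in all 6 fits. Against WT mice the treated group was at -0.43 (SE 0.31, adjusted p = 0.616).

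Gpx8, which encodes a peroxidase of the endoplasmic reticulum, went the other way. It was at 2.52 and 2.34 CPM in WT, 1.86 and 1.49 CPM in Tau and 2.25 and 3.57 CPM in UNC0642-treated Tau mice, from 26 to 81 counts per library. The rise after UNC0642 was 0.80 on the log2 scale (SE 0.33, adjusted p = 0.537), and UNC0642 replicate 2 alone was above the WT libraries. It ran from 0.41 to 1.08 without each library and was called in 3 of the 6 fits. The value in Tau mice was -0.53 (SE 0.33, adjusted p = 0.545). Gpx7, a close relative at 1.51, 1.22 and 1.89 RPKM, the lowest of this role in Tau mice (Gpx3 was lower in the other groups), was at -0.29 and 0.62 in these comparisons and was not called. Of 11 meningeal fibroblast markers tested, 5 were called lower in Tau mice, and the summed level of the markers was 75.7 and 53.0 CPM in Tau libraries, 80.5 and 112 CPM in WT and 80.9 and 75.9 CPM after UNC0642. Their part in the Gpx8 values was not tested.

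Neither of the abundant glutathione peroxidases was called. Gpx1, the cytosolic form and the most abundant of the role at 28.4, 31.5 and 31.8 RPKM, was at 0.16 in Tau mice and 0.01 after UNC0642 on the log2 scale, and Tau replicates 1 and 2 differed, at 51.7 and 39.2 CPM. Without Tau replicate 2 its value in Tau mice was 0.34 and called, and without Tau replicate 1 it was below 0. Gpx4, which protects membrane lipids and restrains ferroptosis, was at 0.10 and 0.04. Gpx4 had 4523 counts in all, while the pseudogene Gpx4-ps2, 99.7% identical to it over 762 bases, had 11594, so the level of Gpx4 is uncertain. The log2 fold change of Gpx4-ps2 between Tau and WT mice was 0.14.

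None of the 7 genes of peroxiredoxins and sulfiredoxin was called. The median of their log2 fold changes was 0.15 in Tau mice, 0.01 after UNC0642 and 0.11 in treated Tau mice against WT mice. They ranged from -0.02 (Prdx4) to 0.25 (Prdx6) in Tau mice. Prdx6, which also has phospholipase activity and is rich in astrocytes, was at 144 and 167 CPM in WT, 176 and 195 CPM in Tau and 182 and 179 CPM in UNC0642-treated Tau mice. Both libraries of each transgenic group were above both WT libraries, and these groups stood at 0.25 (Tau) and 0.21 (treated Tau) on the log2 scale. The values fell to 0.14 and 0.11 without WT replicate 1 and were 0.36 and 0.33, both called, without WT replicate 2. Prdx2, the main peroxiredoxin of neurons, showed 150 and 142 CPM in WT, 168 and 163 CPM in Tau and 168 and 172 CPM in treated Tau mice. It too had both transgenic groups above WT, by 0.18 and 0.22 on the log2 scale. An exon of Prdx2 overlaps 173 bases of Junb on the opposite strand, which had 9943 counts in all against 21712 for Prdx2. Junb was at 0.09 in Tau mice, and at 0.50 in treated Tau mice against WT mice and 0.41 after UNC0642, both called. Rnaseh2a, with an overlap of 154 bases and 2267 counts, was not called. Their part in the Prdx2 counts was not tested. Prdx5, found in mitochondria and peroxisomes, was the most abundant per length at 55.7, 63.7 and 64.1 RPKM, with log2 fold changes of 0.19 and 0.20 against WT mice. Prdx4, the form of the endoplasmic reticulum, was the least abundant at 6.70, 6.58 and 6.65 RPKM. Srxn1, the sulfiredoxin that repairs over-oxidized peroxiredoxins and an NRF2 target, was at 0.11 in both groups against WT mice. Prdx1 and Prdx2 have pseudogene copies, Gm21399 at 98.3% and Tdpx-ps1 at 96.3% identity over 597 bases, with 2163 and 1748 counts in all.

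All 5 genes of the thioredoxin system had positive values in Tau mice, with a median of 0.20, and 0 were called. Txn2 turned negative without Tau replicate 1 and Txnrd2 without WT replicate 2. Txnrd1, the cytosolic thioredoxin reductase, was at 65.2 and 61.8 CPM in WT, 78.6 and 71.3 CPM in Tau and 68.0 and 65.9 CPM in UNC0642-treated Tau mice. Both Tau libraries were highest, at a log2 fold change of 0.24 (SE 0.09, adjusted p = 0.334), just under the fold limit, and the value after UNC0642 was -0.16 (adjusted p = 0.622). Txnip, the inhibitor of thioredoxin, had a larger value of 0.37 in Tau mice with a larger error of 0.18 (adjusted p = 0.435), since Tau replicates were at 15.8 and 20.0 CPM and treated replicates at 13.1 and 18.4 CPM. Txn1, cytosolic thioredoxin and the most abundant of the role, was at 39.4, 45.1 and 47.0 RPKM, and mitochondrial Txnrd2, the least abundant, at 2.80, 2.98 and 2.51 RPKM. After UNC0642 the median of the role was -0.17.

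Of the genes of glutathione synthesis and recycling, Slc7a11 alone was called, and in 1 comparison. Slc7a11 encodes the cystine-glutamate exchanger that imports cystine for glutathione. It was at 118.5 and 149 CPM in WT, 118 and 108 CPM in Tau and 144 and 141 CPM in UNC0642-treated Tau mice. The treated libraries were above the Tau libraries, both Tau libraries were below both WT libraries, and the WT libraries differed from each other by more than WT replicate 1 differed from Tau. The rise after UNC0642 was 0.34 on the log2 scale (SE 0.11, adjusted p = 0.432). It ran from 0.27 to 0.40 without each library and was not called without Tau replicate 2 or UNC0642 replicate 1. In Tau mice the value of -0.24 (SE 0.11, adjusted p = 0.394) was below the fold limit, and it was -0.40 and called without WT replicate 1 but -0.07 without WT replicate 2. Slc7a11 carries 373 bases at 96.0% identity to Tuba1a on the opposite strand. In Tau mice and after UNC0642, Tuba1a had log2 fold changes of 0.22 and -0.17, with signs opposite to those of Slc7a11. Other tested genes with a similar match went both ways after UNC0642. Tuba1c (0.96, called), Gm3756 (0.25) and Gm5620 (0.06) were positive, like Slc7a11. Tuba1b (-0.06), Gm14150 (-0.14) and Gm3226 (-0.11) were negative. Their part in the Slc7a11 counts was not tested.

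The other 4 genes of the role make or recycle glutathione, and none was called. Gclc, the catalytic subunit of the rate-limiting ligase, was at 0.05 in Tau mice and 0.03 after UNC0642, with levels from 58.3 to 63.6 CPM in all 6 libraries. Its modifier Gclm was at 0.21 (adjusted p = 0.432) and -0.16. Gclm shares 244 bases at 100% identity with Gm10123, which had 21239 counts in all against 7030 for Gclm. Gm10123 was at 0.26 and -0.08 in these comparisons, and its part in the Gclm counts was not tested. Gsr, glutathione reductase and the most abundant per length at 18.9, 19.8 and 17.5 RPKM, was at 0.07 and -0.17, with both treated libraries below all others. Gss, which completes glutathione, was the least abundant at 1.66, 1.71 and 1.59 RPKM and at 0.04 and -0.11. An exon overlap of 163 bases with Acss2 on the opposite strand, with 6675 counts against 1338 for Gss, leaves its count uncertain.

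All 7 glutathione transferases had positive values in Tau mice and in treated Tau mice against WT mice, with medians of 0.16 and 0.17. Gstp1 and Mgst3 turned negative in both comparisons without WT replicate 2, and against WT mice after UNC0642 also with the Xist term. Gsta4 turned negative in Tau mice without Tau replicate 1 and with library size alone. Gstm1, which conjugates electrophiles to glutathione and is rich in astrocytes, was at 61.0 and 61.4 CPM in WT, 74.9 and 87.5 CPM in Tau and 71.0 and 65.0 CPM in UNC0642-treated Tau mice. The 3 groups did not overlap, with Tau highest. Its rise in Tau mice was 0.41 on the log2 scale (SE 0.10, adjusted p = 0.198), between 0.30 and 0.52 without each library and called in all 6 fits. After UNC0642 it was at -0.25 (SE 0.10, adjusted p = 0.507), under the fold limit. Gstm2-ps1, 97.9% identical over 657 bases, had 1901 counts against 9414 for Gstm1, and its log2 fold change in Tau mice was also 0.41.

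Gsto1, an omega-class transferase that reduces dehydroascorbate, was at 18 and 18.3 CPM in WT, 23.1 and 23.8 CPM in Tau and 20.7 and 20.5 CPM in UNC0642-treated Tau mice. The replicates were close and the groups apart, in the order of Mt3. It rose by 0.37 on the log2 scale in Tau mice (SE 0.11, adjusted p = 0.268), between 0.35 and 0.39 without each library and called in all 6 fits, and was at -0.19 after UNC0642 (SE 0.11, adjusted p = 0.646). Gstm5, the most abundant transferase at 60.0, 67.2 and 69.3 RPKM, stood at 0.16 and 0.05. Microsomal Mgst1, the least abundant at 1.85, 2.64 and 2.03 RPKM, had a value of 0.51 in Tau mice with a standard error of 0.23 (adjusted p = 0.413). Gstp1 was at 38.7 and 29.3 CPM in the WT libraries, a gap wider than any between its group means. The pseudogene Gstp-ps, 97.6% identical to Gstp1 over 631 bases, had 2759 counts against 4845 for Gstp1.

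The regulators and classic targets of NRF2 were not called in any comparison. Nfe2l2, the gene of NRF2 itself, was at 13.6 and 12.1 CPM in WT, 13.1 and 15.1 CPM in Tau and 16.5 and 13.1 CPM in UNC0642-treated Tau mice, and its repressor Keap1 stayed between 47.8 and 54.2 CPM. Nqo1, the quinone reductase most used as a readout of NRF2, had log2 fold changes of -0.03 (SE 0.28) in Tau mice and 0.14 (SE 0.28) after UNC0642, at 69 to 106 counts per library, and lay at 2.58, 2.55 and 2.78 RPKM, near Hmox1 as the lowest of the role. Hmox1, inducible haem oxygenase, was at 0.17 and 0.12 with SEs of 0.22. At this depth a change in Nqo1 or Hmox1 had to be well above these errors to be called. Mgst1 in Tau mice, at 0.51 with an SE of 0.23, was not called (unadjusted p = 0.0552 in edgeR's test). Hmox2, the constitutive haem oxygenase of neurons and the most abundant of the role at 18, 21.1 and 19.1 RPKM, was at 0.23 in Tau mice (adjusted p = 0.398) and -0.14 after UNC0642, and an exon overlap of 765 bases with Cdip1 on the opposite strand, with 27326 counts, leaves its count uncertain.

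Sesn1, a sestrin that restrains mTORC1 and is a target of p53 and FOXO, was at 63.3 and 61.8 CPM in WT, 72.1 and 75.6 CPM in Tau and 75.9 and 74.0 CPM in UNC0642-treated Tau mice. All 4 transgenic libraries were above both WT libraries, and treated and untreated libraries overlapped. On the log2 scale it was at 0.24 in Tau mice (SE 0.08, adjusted p = 0.312), 0.26 in treated Tau mice (SE 0.08, adjusted p = 0.262) and 0.02 after UNC0642 (adjusted p = 0.966). In both groups its fold change against WT mice was under the limit of 1.2.

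**Figure D4:**
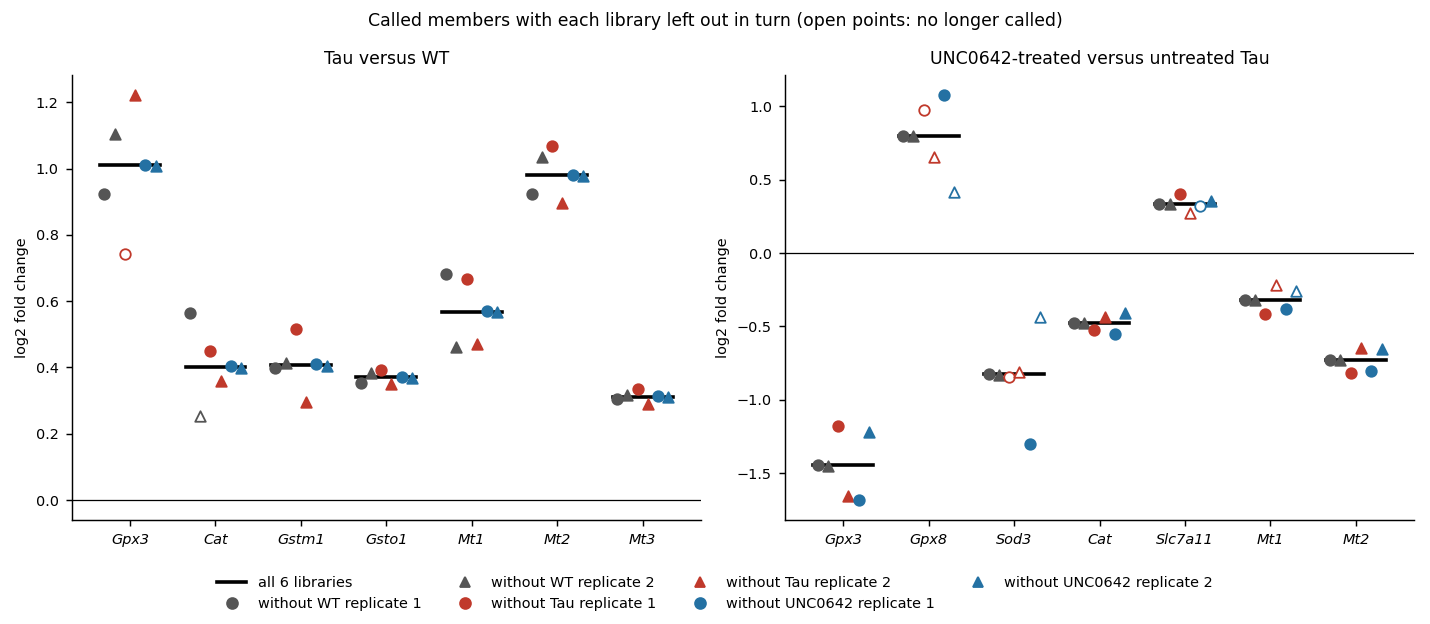
Log2 fold change (vertical axes) of the called members in 2 comparisons, from all 6 libraries (black line) and with each library left out (points coloured by group, circles for replicate 1, triangles for replicate 2), where open points were no longer called. Mt1, Mt2, Mt3, Gstm1 and Gsto1 were called in all 6 fits of Tau versus WT mice, and Gpx3, Cat and Mt2 in all 6 of UNC0642-treated versus untreated Tau mice.

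In UNC0642-treated versus untreated Tau mice, the fit with a term for Xist, which rests on the WT libraries because each Tau group has 1 sex, gave -1.31 for Gpx3, -0.78 for Cat, -0.54 for Mt1 and 0.65 for Slc7a11, all called. Gpx8 (0.71), Sod3 (-0.72) and Mt2 (-0.63) were not called in it, and Prdx1 (-0.37) and Prdx3 (-0.34) were called lower. In Tau versus WT mice the same term gave 13 members higher and Slc7a11 lower (9.00% of all genes called). Several members are rich in astrocytes, and the astrocyte markers summed to 4824 to 5510 CPM in the 6 libraries, and 2 of 10 (Gfap and Gjb6) were called higher in Tau mice. Gfap was at 60.0 and 49.4 CPM in WT, 55.3 and 112 CPM in Tau and 72.7 and 73.1 CPM after UNC0642. Of the endothelial markers 5 of 10 were called lower in Tau mice, with sums of 217 to 224 CPM in WT, 159 to 167 CPM in Tau and 159 to 207 CPM in treated libraries. Erythroid markers were called lower in 2 of 5, while microglial markers were called higher in 2 of 10. All 8 striatal neuron markers were called above the WT level in Tau mice, and 7 of 8 were called below the Tau level in the treated group. For oligodendrocyte markers these counts were 4 and 3 of 10. Without Tau replicate 2, 1 striatal marker was called in each of these comparisons, and 0 oligodendrocyte markers were by edgeR's test. Their part in the members' values was not tested.

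Further genes of these pathways, 99 on a list of which 88 were tested, gave 7 called higher and 2 lower in Tau mice. Of all genes tested, 3.72% were called higher and 6.1% lower. The median log2 fold change of the list was 0.10. After UNC0642 2 were higher (Cdkn1a and Cp) and 3 lower (Gstt3, Gstm7 and Fth1), against 3.73% and 3.95% of all genes. Cdkn1a was at 0.64 and Gstt3 at -1.02 on the log2 scale, and without Tau replicate 2 they were at 0.52 and -1.25. Against WT mice 7 were higher and 5 lower in treated mice, against 3.77% and 5.69% of all genes. The higher ones were Cdkn1a (1.00), Mafk (0.46), Trp53inp1 (0.34), Atp7a (0.31), Ddit4 (0.31), Slc39a14 (0.29) and Slc1a1 (0.26). The lower ones were Gstt3 (-1.14), Atp7b (-0.90), Gstt2 (-0.79), Txnrd3 (-0.75) and Aifm2 (-0.48). The transferase gene Gstm7 was at 6.94 and 6.56 CPM in WT, 8.87 and 11 CPM in Tau and 6.99 and 6.40 CPM in treated mice. Like Gstm1 it was highest in Tau mice, and it was called in both comparisons, at 0.55 and -0.57. Gstm7 and Arrdc3 are also on the study's own list of reversed genes, which was chosen on these libraries. Their values are therefore not independent evidence of a direction. Of the NRF2 pathway and its targets, Mafk (0.44), Bach2 (0.50) and Me1 (0.29) were higher in Tau mice, of 25 tested, and Fth1, ferritin heavy chain, fell after UNC0642 (-0.34). Arrdc3 (0.54), an arrestin-like relative of Txnip, and the stress genes Ddit4 (0.49) and Trp53inp1 (0.38) were higher in Tau mice. Of these genes Arrdc3 was at 79.3 and 136 CPM in Tau and 78.6 and 68.8 CPM in WT, so its value rests on Tau replicate 2 and was 0.11 without it. Without Tau replicate 2 the list gave 3 higher and 2 lower in Tau mice and 1 of each after UNC0642. Of the genes named here as higher in Tau mice, Ddit4 alone was still called (0.36), and Gstm7 and Fth1 were not called after UNC0642. Of 15 genes for zinc and copper handling, Slc30a10 (-0.36) and Cp (-0.32), ceruloplasmin, were lower in Tau mice, and Cp was higher after UNC0642 (0.38). Without Tau replicate 2, Slc30a10 was at -0.19 and Cp at -0.36, neither called, and Cp after UNC0642 was at 0.42 and called. Mtf1, whose protein binds the metal response element, was at 32.3 and 31.5 CPM in WT, 39.6 and 36.7 CPM in Tau and 36.5 and 38.2 CPM in treated mice, and Mt4 had 0 counts in every library, which allows a level of up to 0.104 to 0.176 CPM per library (3 counts, counting error only).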

How the data were processed

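RNA-seq of bulk PFC was analysed in 6 libraries. Per the labels, these are biological duplicates of WT, Tau and UNC0642-treated Tau mice. The authors made strand-specific libraries from total RNA depleted of ribosomal RNA, used Cutadapt for trimming and TopHat2 for alignment, as stated to RefSeq mRNAs. The submitters' processing notes also name SAMtools, featureCounts, edgeR and the mm10 build. Whether featureCounts used strand, and how it treated reads that fit several genes, is not given in the sources used here. The deposited values are counts per gene without normalization. Dates stood in place of 26 gene names in replicate 2 of WT and of Tau, and these rows were joined by position. Coordinates and union exon lengths come from GENCODE M21 (GRCm38) by symbol, of which 53669 of 54429 belonged to 1 gene.

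The members and all gene lists were chosen with earlier results of these data known. Counts were fitted in edgeR 4.0.16 (R 4.3.3) by quasi-likelihood with 3 group means. The filter filterByExpr had a minimum of 10 counts and a total of at least 15, TMM factors were 0.966 to 1.04, and 3 residual degrees of freedom and a biological coefficient of variation of 12.3% remained. Adjusted p-values in the text are those of edgeR's quasi-likelihood test after Benjamini-Hochberg adjustment over the 20409 genes, while calls rest on the unadjusted values. CPM use TMM-scaled library sizes, SDs the 2 libraries of a group and standard errors the fit. Members called in at least 1 comparison were named with the value of each library, and other members by role with the most and the least abundant of each role. The counting of calls was tested on simulated data. Near-identical transcripts (at least 95% over 200 bases) were found with blastn 2.17.0, and promoter windows come from RefSeq. Tables were made with Python 3.11.15 and pandas 2.3.3, figures with matplotlib 3.10.9. Alternatives were DESeq2 size factors and its Wald test (DESeq2 1.42.0), limma-voom (limma 3.58.1), library size alone, other filters, a fit of only the compared groups, a replicate block, an Xist term, other thresholds and fits without each library. The set of short, abundant genes, and the counts of other pathway genes and markers without each library, were added after the data were seen.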

Additional observations from a re-analysis of the deposited data

How the results depend on the processing

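No member called in either fit changed sign between all 6 libraries and any alternative, and the medians kept theirs. Members not called did change sign, up to 5 of 42 in Tau versus WT mice (library size alone, without WT replicate 2 and without Tau replicate 1), 15 in UNC0642-treated versus untreated Tau mice (Xist term) and 5 in UNC0642-treated Tau versus WT mice (Xist term and without either WT replicate). Members called in Tau versus WT mice, 7 with all libraries, were 14 with an Xist term, 14 without a fold limit, 2 at a fold change of 1.5, 0 with adjusted p-values under 0.05, and 8 to 14 without each library. Their median log2 fold change, 0.16, was 0.0863 with library size alone, which moved the median of all genes to -0.07, and 0.22 with the Xist term, and ran from 0.0945 to 0.22 without each library. In UNC0642-treated versus untreated Tau mice, 7 called became 4 at a fold change of 1.5, 0 with adjusted p-values and 4 to 8 without each library. The median of -0.04 became -0.15 with the Xist term and ran from -0.0785 to -0.0390 without each library. In UNC0642-treated Tau versus WT mice, 0 called became 1 with DESeq2 size factors, 1 with its Wald test, 2 with the Xist term, 7 without a fold limit and 0 to 6 without each library. The median of 0.13 became 0.10 with library size alone and 0.0730 with the Xist term, and ran from 0.0831 to 0.15 without each library. Of all genes, with all libraries, 3.72% were called higher and 6.1% lower in Tau versus WT mice. These shares were 3.73% and 3.95% in treated versus untreated Tau mice, and 3.77% and 5.69% in treated Tau versus WT mice. Without a fold limit, 2529, 1808 and 2468 of 20409 genes had an unadjusted p-value under 0.05 in edgeR's test. Shares for the other settings are not all given, so these counts alone do not set members apart from all genes. The causes were not tested.

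Same-numbered libraries are different mice. With the replicate block, 7, 6 and 0 members were called in the 3 comparisons. Each group had 2 mice, with 3 residual degrees of freedom and 26 to 156 counts per library for Gpx3, Gpx8 and Sod3. A change in these genes had to be well above its standard error to be called.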
